A study of Mus musculus with 18 samples.

Results

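Hearts of mice kept for 2 weeks under chronic intermittent hypoxia (CIH) were compared with hearts of 2-week control mice. The comparison rests on 4 of the 18 cDNA arrays of the series, 2 CIH arrays and 2 control arrays, chosen by their titles and not by any measured value. The series also holds CIH and control hearts of 1 and 4 weeks and hearts under chronic constant hypoxia (CCH) of 1, 2 and 4 weeks, with 2 arrays in each of 9 groups. By the labels, cDNA of a male heart carried the dye Cy5 on every array, and cDNA of a female heart carried Cy3. Both hearts of an array had the same condition and duration by the labels, and each deposited value is the log2 ratio of the channels. The comparison therefore asks whether the male-to-female ratio of a transcript was different under CIH, and it cannot show in which sex the transcript differed. Strain, age and the hypoxia regime are not given in the sources used here. Nothing in the labels says that a group's arrays were made from different animals. The p-values then reflect array-to-array spread, which may be technical.

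In intermittent hypoxia, short spells of low oxygen alternate with normal air, and the swings of oxygen are a source of reactive oxygen species. The heart draws most of its ATP from oxidation of fatty acids in mitochondria, through beta-oxidation, the citric acid cycle and the respiratory chain. Low oxygen stabilises the transcription factor HIF-1, which turns on genes of glycolysis, glucose uptake and mitophagy and pyruvate dehydrogenase kinases that close the entry of pyruvate into the citric acid cycle.

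Of 10225 gene symbols on the array, 6649 had a value on all 4 arrays and were tested. A gene's value is the mean of its spots after each array was centred on its median, so 0 is the ratio of the median spot. The direction, male over female, was taken from Eif2s3y, a Y-linked translation factor gene, which stood at 1.73 and 2.02 on the CIH arrays and at 1.42 and 1.04 on the control arrays. All 4 values are positive. Over all 18 arrays it lay between 0.997 and 2.28 on 17 and at -0.03 on replicate 1 of the 4-week CIH group, whose direction this gene does not settle. The 2-week CIH minus control difference of 0.64 ± 0.38 (SE, n = 2 arrays per group) did not pass the test (limma adjusted p = 0.299). After scaling of the arrays to a common spread it was -0.78. The ratios hold no expression level, so the presence of cardiomyocyte transcripts could not be checked by level. Cardiac troponin T (Tnnt2) had ratios of -0.30 and 0.16 on the CIH arrays and of -0.10 and -0.13 on the control arrays, and values for Myh6 and Myh7 were not analysed here.

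The arrays differed in how well the pairs agreed. Across the 6649 genes the CIH arrays correlated with each other at r = 0.667 and the control arrays at r = 0.065, where genes are not independent replicates. Control replicate 2 ran against both CIH arrays (r = -0.319 and -0.339, and -0.34 and -0.312 over single spots), and control replicate 1 ran weakly with them (r = 0.217 and 0.197). The SD of the gene ratios was 0.416 and 0.543 on the CIH arrays, against 0.202 and 0.36 on the control arrays. Control replicate 1 was thus the flattest array, and its title carries the code 1A, whereas the week digit of the other coded titles matches the duration. Both CIH arrays stood above both control arrays for 2052 genes (30.9%) and below both for 2058 (31%).

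**Figure D1:**
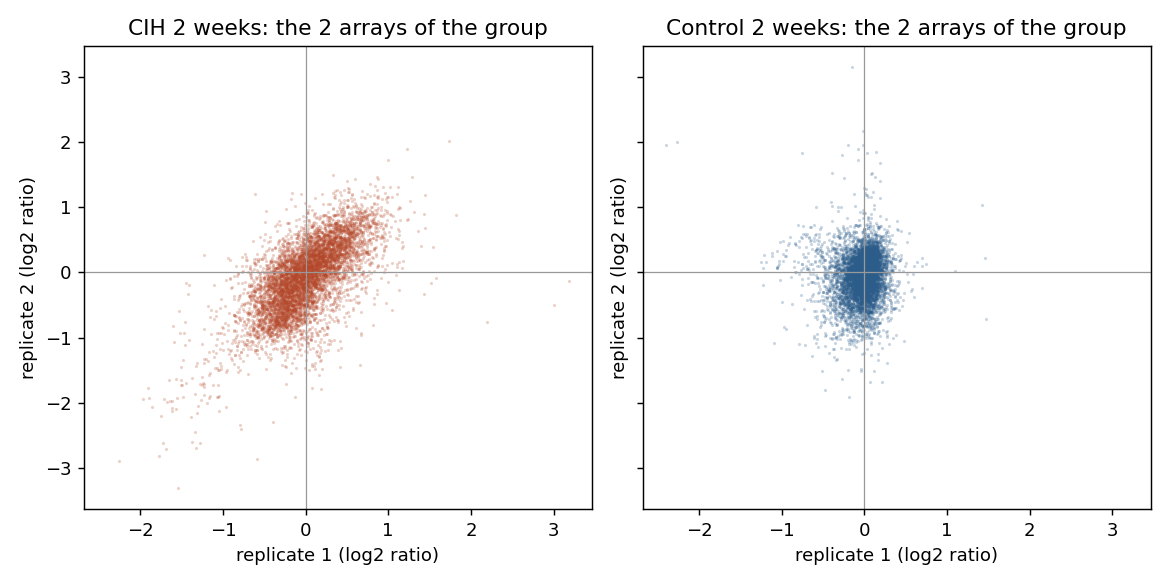
Log2 male-to-female ratio of each of 6649 genes on replicate 2 (y axis) against replicate 1 (x axis), for the CIH arrays on the left and the control arrays on the right, with 1 point per gene. The CIH points lie along a rising diagonal (r = 0.667), while the control points form a cloud that is narrow along replicate 1 and shows little slope (r = 0.065).

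Phtf1, named for a putative homeodomain, was the gene whose ratio fell past the threshold under CIH, 1 of 6649 genes (0.015%). Its ratio was -2.26 and -2.90 on the CIH arrays, against -0.28 and 0.61 on the control arrays. Both CIH arrays were far below both control arrays. To lie below both was a condition for being named, which 31% of all genes met. The difference was -2.74 ± 0.34 (SE, n = 2 arrays per group), a male-to-female ratio 6.69-fold lower under CIH (limma adjusted p = 0.00473, unadjusted p = 7.11e-07). The gene has 2 spots, of which 1 had a value on all 4 arrays. With such spots alone the difference was -2.44 and the limma adjusted p 0.108. The call was also lost without control replicate 2 (-2.29, adjusted p = 0.183), without CIH replicate 2 (-2.42, adjusted p = 0.108), after scaling the arrays to 1 spread (-1.90, adjusted p = 0.0726) and with the spread taken from the 4 arrays alone (adjusted p = 0.0686).

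The next smallest adjusted p was 0.101, and 302 genes lay under 0.11. The genes that follow thus did not pass the threshold in this fit and are described by their values. After scaling the arrays to 1 spread, Mrpl40, Mrps36, Pafah1b3, Uqcrfs1 and Rgs5 among them did pass. Without adjustment, 1539 genes had a p under 0.05, of which 897 (13.5%) were higher and 642 (9.66%) lower under CIH. That split depends on the scaling: it was 612 higher and 952 lower with the values as deposited, 804 and 388 after scaling the arrays to 1 spread, and 659 and 637 after quantile normalization. The call count depends on single arrays. Without control replicate 1, the array with the differing code, 17 genes passed the limma test, and without control replicate 2 none did (431 with an unadjusted p under 0.05).

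**Figure D2:**
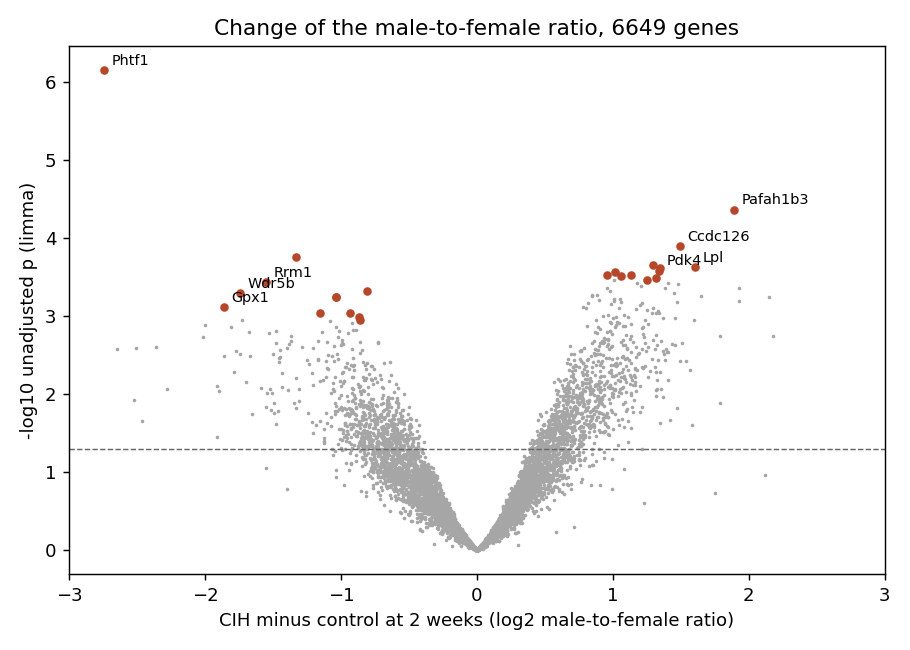
CIH minus control difference in the log2 male-to-female ratio (x axis) against -log10 of the unadjusted limma p (y axis) for 6649 genes, with a dashed line at the unadjusted threshold. Red points are the 12 genes per direction with the smallest p among genes whose groups do not overlap. Phtf1 stands alone at the upper left with a difference of -2.74.

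The 12 leading genes with a higher ratio under CIH are grouped here by role, after their values were seen, beginning with genes of fuel use and of mitochondria. Pdk4, the kinase that inhibits pyruvate dehydrogenase and so spares glucose for fatty acid use, had ratios of 1.12 and 1.31 on the CIH arrays and of -0.31 and 0.05 on the control arrays. The CIH arrays lay above both controls, a condition for being named, and the difference was 1.34 ± 0.28 (SE, limma adjusted p = 0.101). Lpl, the lipase that releases fatty acids from circulating lipoproteins, had 0.86 and 0.91 under CIH, against -0.28 and -1.16 in controls, a difference of 1.61 ± 0.33 (SE, limma adjusted p = 0.101). In Lpl the control arrays themselves were far apart, with replicate 2 the lower. Prkag2, a regulatory subunit of the energy sensor AMP-activated kinase, had 0.92 and 1.13 under CIH, against 0.03 and -0.02 in controls. Uqcrfs1, the Rieske iron-sulfur protein of complex III, had 0.75 and 0.31 under CIH, against -0.36 and -1.09 in controls. Mrpl40 and Mrps36, named as proteins of the large and the small mitochondrial ribosomal subunit, differed by 1.35 and 1.30. In Prkag2 and Pdk4 the control arrays lay between -0.31 and 0.05, while in Uqcrfs1 control replicate 2 lay far below control replicate 1.

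The other leading genes with a higher ratio had diverse roles. Pafah1b3, a catalytic subunit of an acetylhydrolase that inactivates platelet-activating factor, had 1.04 and 1.15 on the CIH arrays, against -0.57 and -1.02 on the control arrays, a difference of 1.89 ± 0.33 (SE, limma adjusted p = 0.101). Idh1, the cytosolic isocitrate dehydrogenase that makes NADPH, had 1.13 and 1.00 under CIH, against -0.01 and -0.49 in controls. Ccdc126, a coiled-coil gene, had 1.23 and 0.81 under CIH, against -0.47 and -0.48 in controls, so its control arrays were almost equal. The rest were Twsg1 (a secreted modulator of bone morphogenetic proteins), Usp8 (a deubiquitinase of endosomes) and Kbtbd4 (an adaptor of a cullin ubiquitin ligase), with differences of 1.14, 1.06 and 0.96. Kbtbd4 had no spot with values on all 4 arrays, so its averages compare different spots. Prkag2, Uqcrfs1 and Ccdc126 had 2 spots each and Usp8 had 3, of which 1 per gene had values on all 4 arrays. Their averages may thus differ in part by the spots used.

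Beside Phtf1, the 12 leading genes with a lower ratio include genes of DNA synthesis and of peroxide and polyamine metabolism. Rrm1, the large subunit of ribonucleotide reductase, had -1.24 and -1.69 on the CIH arrays, against -0.43 and 0.60 on the control arrays, a difference of -1.55 ± 0.34 (SE, limma adjusted p = 0.101). Pold4, a small subunit of DNA polymerase delta, had -0.48 and -0.56 under CIH, against 0.26 and 0.31 in controls. Gpx1, the glutathione peroxidase that removes hydrogen peroxide, had -1.30 and -2.04 under CIH, against -0.22 and 0.60 in controls, a difference of -1.86 ± 0.44 (SE, limma adjusted p = 0.101). In each of these genes the groups were apart, which was a condition for being named. The replicates of Pold4 lay closer together than those of Rrm1 and Gpx1. Smox, which oxidises spermine, and Gmds, the first enzyme of GDP-fucose synthesis, had differences of -1.04 each. Wdr5b, a WD-repeat gene, differed by -1.74 and 4833420G17Rik by -1.33. Arv1 (lipid homeostasis of the endoplasmic reticulum), Sclt1 (a protein of centriole appendages), Nhsl1 and Gm13238 differed by -1.16, -0.93, -0.87 and -0.86. Rrm1, Pold4 and Arv1 had 2 spots each, of which 1 had values on all 4 arrays, so their averages may compare partly different spots.

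**Figure D3:**
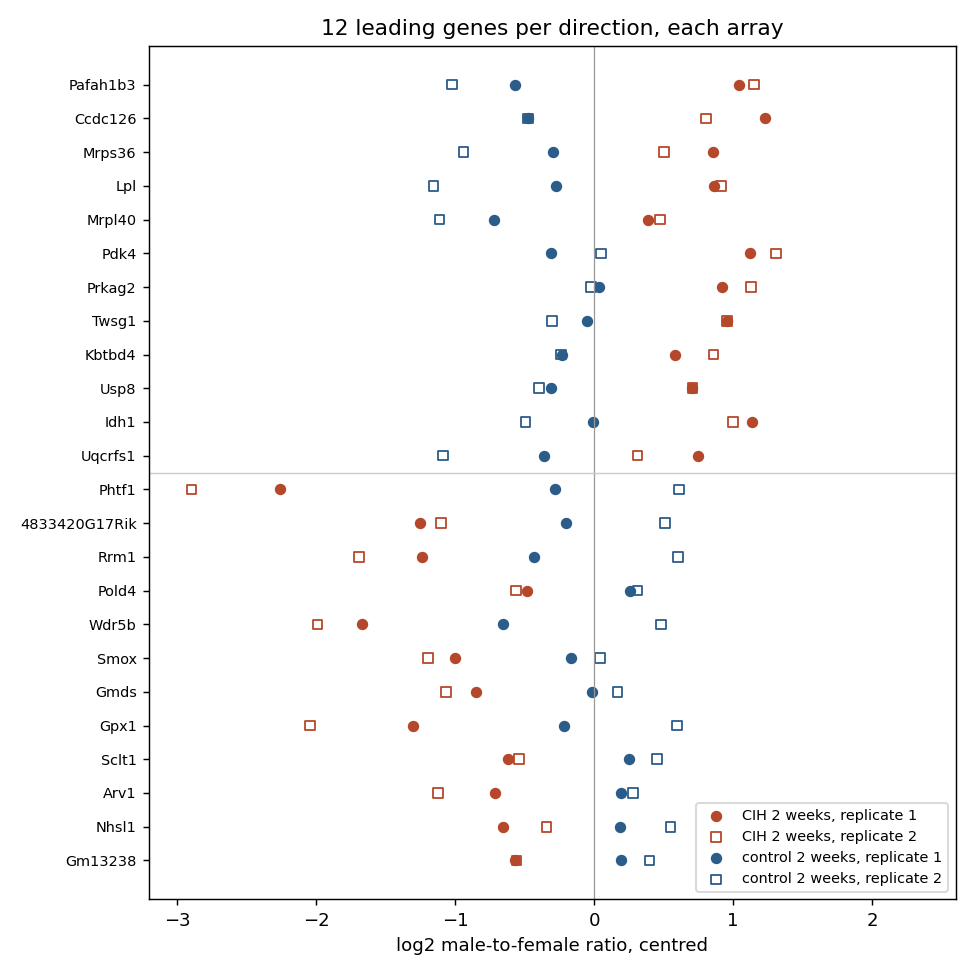
Log2 male-to-female ratio (x axis) of the 12 leading genes per direction (rows) on each array, CIH in red and control in blue, replicate 1 filled and replicate 2 open. In every row the CIH points do not overlap the control points, which was a condition for being named. Control replicate 2 is often the point farthest from the CIH arrays, as in Lpl and Rrm1.

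The promoters of Phtf1, the gene past the threshold, and of Pdk4, a gene of fuel choice picked from the leading higher genes after their values were seen, are shown. Both are reference sequence from RefSeq (GRCm38.p6), 5′ to 3′ on the gene's strand, around the annotated start of the gene: chr6:5496229-5496528 on the minus strand for Pdk4 and chr3:103967860-103968159 on the plus strand for Phtf1. Capitals mark AGATAA, the motif of GATA factors.
Pdk4: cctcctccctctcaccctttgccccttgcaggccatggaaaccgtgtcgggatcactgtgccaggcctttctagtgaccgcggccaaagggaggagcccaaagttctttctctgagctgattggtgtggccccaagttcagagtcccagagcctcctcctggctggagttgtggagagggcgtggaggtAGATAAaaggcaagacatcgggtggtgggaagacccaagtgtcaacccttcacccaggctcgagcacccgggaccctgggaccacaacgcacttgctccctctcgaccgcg
Phtf1: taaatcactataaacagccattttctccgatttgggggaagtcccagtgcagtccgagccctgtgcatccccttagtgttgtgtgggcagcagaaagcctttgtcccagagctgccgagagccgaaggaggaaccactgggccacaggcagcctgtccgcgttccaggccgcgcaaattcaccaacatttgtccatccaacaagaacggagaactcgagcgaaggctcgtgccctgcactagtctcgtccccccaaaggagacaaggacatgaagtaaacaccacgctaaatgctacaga
Searched on both strands, ACGTG, the core of the hypoxia response element bound by HIF-1, was in neither window, and AGATAA was in the Pdk4 window alone. Of 27025 windows of the same length, 5315 (19.7%) held ACGTG and 3083 (11.4%) held AGATAA. Among the 21 leading genes with a window, ACGTG was found in 3 (14.3%; Ccdc126, 4833420G17Rik and Gpx1) and AGATAA in 2 (9.5%; Pdk4 and Mrps36). The letters in a window are a description and do not show binding.

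The 4 lists of mitochondrial fuel oxidation had median differences above 0, and the size depended on control replicate 2. In the citric acid cycle list, 10 of 16 tested members were higher at an unadjusted p under 0.05 and 0 lower, beside 13.5% and 9.66% of all genes, and the median difference was 0.92 beside 0.002 over all genes. In fatty acid oxidation the counts were 13 higher and 1 lower of 25 (median 0.63), in complex I of the respiratory chain 13 and 0 of 32 (median 0.45), and in complexes II to V 14 and 0 of 35 (median 0.43). None of these members passed the limma test after adjustment over all genes, although Uqcrfs1 of complex III did after scaling the arrays to 1 spread. The lists overlap, since succinate dehydrogenase counts both in the citric acid cycle and in complex II, and they were chosen with earlier results of these arrays known.

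The median ratios by array show where this distance lies. The citric acid cycle list had medians of 0.48 and 0.45 on the CIH arrays, against -0.08 and -0.84 on the control arrays. Fatty acid oxidation had 0.33 and 0.17 under CIH, against -0.12 and -0.61 in controls. Complex I had 0.05 and 0.07 under CIH, against -0.02 and -0.62 in controls. For complex I, the CIH arrays and control replicate 1 were all near 0 and control replicate 2 alone was far below. Without control replicate 2, the medians dropped to 0.51 (citric acid cycle), 0.41 (fatty acid oxidation), 0.16 (complex I) and 0.23 (complexes II to V), with 3, 3, 2 and 3 members higher. Without control replicate 1 they were 1.30, 0.83, 0.68 and 0.63, with 13, 15, 21 and 17 members higher.

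Single members illustrate these lists. Dld, the shared dehydrogenase subunit of the pyruvate and 2-oxoglutarate dehydrogenase complexes, had 1.11 and 1.20 on the CIH arrays, against -0.07 and -0.82 on the control arrays (difference 1.60 ± 0.40 SE, limma adjusted p = 0.101). Pdha1, the X-linked catalytic subunit of pyruvate dehydrogenase, had 0.97 and 1.13 under CIH, against -0.10 and -0.80 in controls, and all 5 of its spots had the same sign of difference. Idh3a, of the NAD-dependent isocitrate dehydrogenase, had 0.59 and 0.72 under CIH, against -0.17 and -1.04 in controls, with 6 spots of the same sign. The repeated spots of Pdha1 and Idh3a thus gave the same direction. Cd36, the fatty acid transporter of the cell membrane, had 1.28 and 1.47 under CIH, against -0.37 and -1.18 in controls, and its difference of 2.15 ± 0.48 (SE, limma adjusted p = 0.101) is a 4.44-fold higher ratio. Etfa, which passes electrons from beta-oxidation to the respiratory chain, differed by 1.44. Among respiratory chain genes, Ndufb9, Ndufa3 and Ndufb4 of complex I differed by 0.96, 0.90 and 0.71, and Cox6a1 of cytochrome c oxidase and Atp5a1 of ATP synthase by 0.90 and 1.33.

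**Figure D4:**
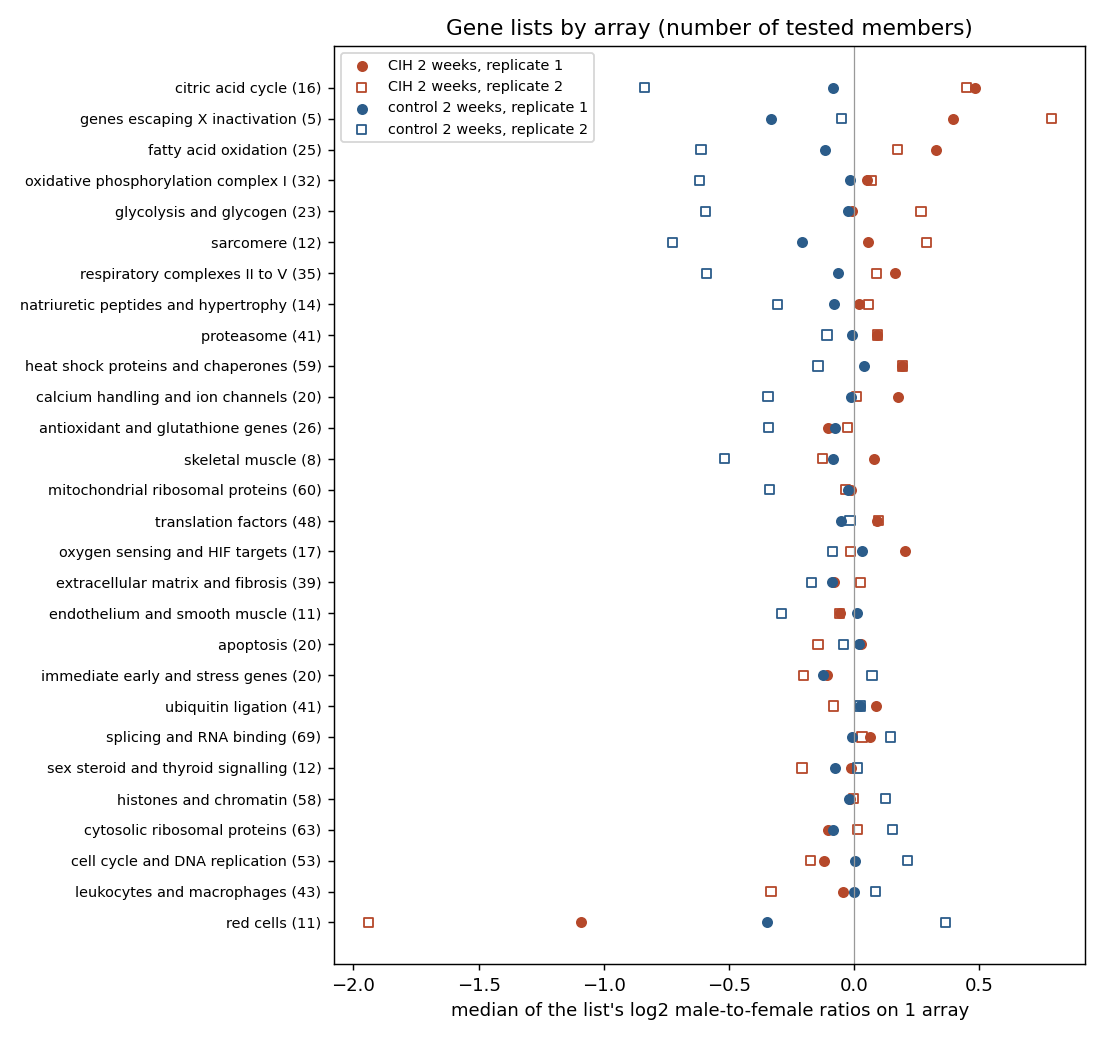
Median log2 male-to-female ratio of each gene list with at least 5 tested members (rows, number of members in brackets) on each array, CIH in red and control in blue, replicate 1 filled and replicate 2 open, sorted by the median difference. The citric acid cycle list is at 0.48 and 0.45 under CIH, against -0.08 and -0.84 in controls, and the red cell list at -1.09 and -1.94, against -0.35 and 0.37.

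Of 23 glycolysis and glycogen genes, 19 had a difference above 0, where the median difference over all genes was 0.002. At an unadjusted p under 0.05, 3 were higher and 2 lower (0 to 7 and 0 to 2 with 1 array left out), and the median difference of 0.45 became 0.11 without control replicate 2. Aldoc, an aldolase, differed by 1.39, Ldha, a lactate dehydrogenase subunit, by 0.65 and Pgm2, a phosphoglucomutase, by -1.04. Of 17 genes of oxygen sensing and HIF targets, 11 had a difference above 0, and 2 were higher and 2 lower (0 to 3 each with 1 array left out; median 0.15). The counts of both lists at an unadjusted p under 0.05 were near the 13.5% higher and 9.66% lower of all genes. Pdk1, another pyruvate dehydrogenase kinase, had 0.87 and 0.57 on the CIH arrays, against 0.03 and -0.44 on the control arrays. Bnip3, a mitophagy receptor, had 0.69 and -0.01 under CIH, against -0.12 and -0.42 in controls. Its relative Bnip3l, which also clears mitochondria from maturing red cells, lay the other way with -0.69 and -1.56 under CIH, against -0.10 and 0.73 in controls (difference -1.44 ± 0.44 SE, limma adjusted p = 0.112). The mitophagy receptors thus had differences of opposite sign. The glucose transporter Slc2a1 differed by -0.60 and its insulin-responsive relative Slc2a4 by 0.55 (limma adjusted p = 0.168 and 0.372). Of the 2 spots of Slc2a1, only 1 had the sign of the gene's difference. Of the sensing genes, Hif1a differed by 0.41, its partner Arnt by 0.12, Vhl, which marks HIF-1 for degradation, by -0.47, and the prolyl hydroxylases Egln1 and Egln3 by 0.28 and 0.14. For these 5 genes the limma adjusted p lay between 0.284 and 0.812. Pdk2 was at a difference of 0.01, and the transferrin receptor gene Tfrc, for iron uptake, at 0.54 (limma adjusted p = 0.314).

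Of 12 sarcomere genes, 5 were higher and 0 lower at an unadjusted p under 0.05 (1 to 6 higher with 1 array left out; median 0.44). Pdlim5, a scaffold of the Z-disc, had 1.22 and 1.89 on the CIH arrays, against -0.12 and -1.12 on the control arrays (difference 2.18 ± 0.58 SE, limma adjusted p = 0.101). Fhl2 and Csrp3, LIM proteins of the sarcomere, differed by 1.57 and 0.90. The counts here stand beside 13.5% higher and 9.66% lower of all genes. Of 20 genes of calcium handling and ion channels, 7 were higher and 1 lower (2 to 8 and 0 to 1 with 1 array left out; median 0.21). Pln, or phospholamban, the brake on the calcium pump of the sarcoplasmic reticulum, had 1.03 and 0.88 under CIH, against -0.37 and -1.30 in controls (difference 1.79 ± 0.47 SE, limma adjusted p = 0.101). The pump itself, Atp2a2, differed by 0.76, the exchanger Slc8a1 by 1.35 and the calcium sensor S100a1 by 1.09. In each gene named here control replicate 2 was the lowest of the 4 arrays. Without that array 1 sarcomere gene and 2 calcium genes were higher.

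The natriuretic peptide genes Nppa and Nppb, markers of cardiac strain, could not be placed. Nppa had -0.36 and -0.20 on the CIH arrays, against -0.76 and 1.83 on the control arrays, and Nppb had -0.23 and 0.97 under CIH, against 1.48 and -0.71 in controls. The control arrays were far apart in both genes and in opposite order. In the hypertrophy list as a whole, 2 of 14 genes were higher and 0 lower (1 to 2 and 0 to 1 with 1 array left out), near the 13.5% higher of all genes. The higher ones were the LIM protein gene Fhl1 (0.91) and the transcription factor Mef2a (0.92), while the calcineurin inhibitor Rcan1 was at -0.50 (limma adjusted p = 0.242).

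Of 59 heat shock and chaperone genes, 16 were higher and 3 lower at an unadjusted p under 0.05 (median 0.24), which became 4 and 2 without control replicate 2. Hspa5, the chaperone of the endoplasmic reticulum, had 0.80 and 1.00 on the CIH arrays, against 0.22 and -0.37 on the control arrays. Dnaja2 and Dnajc15, co-chaperones of Hsp70 proteins, differed by 1.29 and 0.78. Of 41 proteasome genes, 8 were higher and 2 lower (3 to 6 and 0 to 3 with 1 array left out; median 0.24), and the first were Psmd12, Psmc6 and Psme1 with 1.45, 1.17 and 0.72. Of 41 ubiquitin ligation genes, 6 were higher and 5 lower (0 to 6 and 1 to 5 with 1 array left out), near the 13.5% and 9.66% of all genes, with Cul1 at 0.92 and Ube2c at -1.25. Ube2l6, an enzyme that attaches the ubiquitin-like protein ISG15, had -1.55 and -3.31 under CIH, against -0.03 and 0.47 in controls. That is a difference of -2.65 ± 0.73 (SE, limma adjusted p = 0.101), and the CIH arrays themselves were far apart.

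Cytosolic ribosomal protein genes were near 0, with 4 higher and 0 lower of 63 (0 to 6 and 0 to 2 with 1 array left out; median -0.07). These 4 include Rpl36a, Rpl4 and Rpl7a at 0.57, 0.75 and 0.62, though only 1 of the 2 spots of Rpl36a had the sign of the gene's difference. Of 60 mitochondrial ribosomal protein genes, 13 were higher and 3 lower (5 to 20 and 0 to 4 with 1 array left out; median 0.16), with Mrps21 at 0.93, and the median was -0.03 without control replicate 2. Of 48 translation factor genes, 8 were higher and 1 lower (4 to 8 and 0 to 1 with 1 array left out; median 0.15), led by Eif2a, Eif4a2 and Eif3a with 0.96, 0.68 and 0.78. In Eif4a2 the CIH arrays stood at 0.65 and 0.75, against -0.03 and 0.06 in controls, so both replicates of each group lay close together. Splicing genes (5 higher and 2 lower of 69, 1 to 4 and 0 to 3 with 1 array left out, with Snrpa at 0.71 and Hnrnpr at 0.57) and histone and chromatin genes (6 and 3 of 58, 3 to 5 and 1 to 6 with 1 array left out, with Chd6 at 0.67 and Hdac10 at -1.17) stood below the 13.5% and 9.66% of all genes.

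Of 26 antioxidant genes, 4 were higher and 3 lower (2 to 5 and 2 to 4 with 1 array left out; median 0.19), near the 13.5% and 9.66% of all genes. Gstm6, a glutathione transferase, had 0.55 and 1.13 on the CIH arrays, against -1.09 and -1.08 on the control arrays, a difference of 1.93 ± 0.43 (SE, limma adjusted p = 0.101). As a member of a family of near-identical genes, it may share signal with its relatives on a cDNA array. Prdx3, the mitochondrial peroxiredoxin, had 0.93 and 0.57 under CIH, against -0.06 and -0.89 in controls, whereas Gpx1 was lower. Extracellular matrix genes gave 8 higher and 2 lower of 39 (2 to 6 and 1 to 3 with 1 array left out; median 0.12), with the collagen gene Col5a2 at 0.81, decorin (Dcn) at 0.72 and the laminin gene Lama5 at -0.96.

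Cell cycle and DNA replication genes leaned to lower ratios, with 9 lower and 3 higher of 53 (2 to 13 and 1 to 3 with 1 array left out; median -0.21). Over all genes, 9.66% were lower and 13.5% higher, which also stands beside the counts of the lists that follow. Besides Rrm1 and Pold4, Mcm3 of the replicative helicase had -1.37 and -1.61 on the CIH arrays, against -0.60 and 0.57 on the control arrays, a difference of -1.48 ± 0.40 (SE, limma adjusted p = 0.101). Without control replicate 2 the counts were 2 lower and 1 higher. Of 20 immediate early and stress genes, 0 were higher and 3 lower (Gadd45b, Trib1 and Btg4 at -0.79, -0.79 and -0.73), and with 1 array left out 0 to 4 were lower. Of 20 apoptosis genes, 2 were higher and 3 lower (0 to 2 and 0 to 3 with 1 array left out), with Casp2 at -0.98, Casp9 at -0.52 and Aifm1 at 0.53.

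Red cell genes had the lowest median difference of the lists with at least 5 tested members. Of 11 tested members, 7 were lower and 1 higher at an unadjusted p under 0.05, beside 9.66% and 13.5% of all genes. The median difference was -1.55 (-0.90 with arrays scaled to a common spread, with 3 lower and 1 higher). The list median was -1.09 and -1.94 on the CIH arrays, against -0.35 and 0.37 on the control arrays. Alas2, the first enzyme of heme synthesis in red cells, had -1.78 and -2.82 under CIH, against -0.74 and 0.71 in controls, a difference of -2.28 ± 0.75 (SE, limma adjusted p = 0.124). Fech, the last enzyme of that pathway, had -1.71 and -1.94 under CIH, against 0.00 and 0.38 in controls. The groups did not overlap in either gene. The embryonic globins Hbb-bh1, Hba-x and Hbb-y differed by -1.91, -1.55 and -1.55, the anion exchanger Slc4a1 by -1.90, Bpgm, which makes the regulator of hemoglobin's oxygen affinity, by -1.39, and Blvrb, a biliverdin reductase, by -0.74. Rhag and Car1 differed by -0.34 and 0.18, and Gypc, a membrane glycoprotein, by 1.06. Values on these genes beyond Fech, Gypc, Hbb-bh1 and Alas2 are given to account for the whole list, after they were seen. The counts fell to 2 lower without control replicate 2 and to 2 lower without CIH replicate 2. A change in the share of red cells and a change in RNA per cell cannot be told apart in whole tissue. A lower ratio can mean less of these transcripts in the male heart or more in the female heart, and these cannot be told apart either. The ratios of most of these markers lay lower under CIH, as did those of the leading lower genes, and the part of red cells in those results was not tested.

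Markers of other cells had medians nearer 0, and their counts stand beside 9.66% lower and 13.5% higher of all genes. Of 43 leukocyte and macrophage genes, 4 were lower and 2 higher (0 to 7 lower and 2 higher with 1 array left out; median -0.33), with Cd24a at -2.52, Cd200r3 at 0.85 and Cd36, named above, also on that list. Of 11 endothelial and smooth muscle genes, 1 was lower (Nos3, the endothelial nitric oxide synthase, at -0.69) and 1 higher (Rgs5, a pericyte gene, at 1.38), and Cldn5 was at 0.41 (limma adjusted p = 0.229). Of 8 skeletal muscle genes, 2 were higher (Mylpf at 1.05 and Myh8 at 0.93; 0 to 2 with 1 array left out), and Tnnt1 was at 0.39 (limma adjusted p = 0.309). The lung, fat and thymus lists had 3, 3 and 2 tested members, of which 0, 1 and 0 had an unadjusted p under 0.05, the 1 in fat being lower.

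Since each value is a ratio of the sexes, genes tied to the sex chromosomes were examined. Of 5 tested genes that escape X inactivation, 3 were higher under CIH at an unadjusted p under 0.05 (1 to 3 with 1 array left out). The histone demethylase gene Kdm5c had 1.03 and 1.32 on the CIH arrays, against -0.39 and -0.02 on the control arrays, a difference of 1.38 ± 0.39 (SE, limma adjusted p = 0.103). Eif2s3x, the X-linked partner of Eif2s3y, had 0.86 and 1.46 under CIH, against 0.26 and 0.07 in controls, and Usp9x differed by 0.69. With male cDNA in Cy5 on every array by the labels, dye and sex cannot be told apart in the sign of a single ratio. For genes with a second active copy in females a negative ratio is usual. Kdm6a showed one on all 4 arrays (-0.43 and -0.47 under CIH, against -0.44 and -0.28 in controls). Kdm5c and Eif2s3x were positive on both CIH arrays, and Eif2s3x was positive on both control arrays too. A positive ratio was not particular to CIH, since the 2-week CCH arrays had 0.324 and 0.265 for Kdm5c and 0.61 and 0.318 for Eif2s3x. Ddx3x differed by 0.23. Over 191 tested X-linked genes, 36 were higher and 18 lower, beside 13.5% and 9.66% of all genes, with a median of 0.05. Of 12 genes of sex steroid and thyroid signalling, 0 were higher and 2 lower (1 to 3 lower with 1 array left out), namely Dio2, which activates thyroid hormone, at -0.81 and the steroid dehydrogenase Hsd3b4 at -0.75. The estrogen receptor gene Esr1 was at -0.56 and the thyroid hormone receptor gene Thra at 0.26 (limma adjusted p = 0.284 and 0.543), and the gelsolin gene Gsn was at 0.17 (limma adjusted p = 0.616).

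The CIH hearts of 1 and 4 weeks, each with their own controls, show the same genes at other durations. The 1-week values include CIH replicate 1, grouped by its title, although its source name reads 2 weeks of CCH. The 4-week values depend on replicate 1 of the CIH group, where Eif2s3y was near 0, and they are given with and without it. For Phtf1 the CIH minus control difference was -0.03 at 1 week, -2.74 at 2 weeks and -2.15 at 4 weeks (-1.92 without that array). Its ratio was -0.44 and 0.11 on the CIH arrays of 1 week, against -0.41 and 0.14 in their controls, and -1.91 and -1.44 on those of 4 weeks, against 0.49 and 0.46. The low ratio was thus present at 2 and 4 weeks and not at 1 week. Of the leading lower genes, 9 of the 11 with values were below 0 at 4 weeks (median -0.78), and of the leading higher genes 7 of 12 were above 0 (median 0.02). Without that array these were 6 of 11 (median -0.64) and 3 of 12 (median -0.13). Of the 642 genes lower at 2 weeks, 81.3% of those with values were below 0 at 4 weeks and 39.4% at 1 week, beside 51.1% and 51.5% of all genes. Of the 897 higher genes, 71.6% were above 0 at 4 weeks and 31.2% at 1 week, beside 48.9% and 48.5%. Without that array the 4-week shares were 51.9% below 0 for the lower genes, beside 52.4% of all genes, and 27.4% above 0 for the higher genes, beside 47.6%. The 4-week excess in the direction of 2 weeks was thus not seen without that array. These shares were not computed with the other 4-week arrays left out. The red cell list had median differences of -0.18, -1.55 and -1.80 at 1, 2 and 4 weeks. The citric acid cycle list had -0.27, 0.92 and 0.18, fatty acid oxidation -0.28, 0.63 and 0.14 and complex I -0.34, 0.45 and 0.14. Without that array the 4-week medians were -1.63 for red cells, -0.34 for the citric acid cycle, -0.16 for fatty acid oxidation and -0.06 for complex I.

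**Figure D5:**
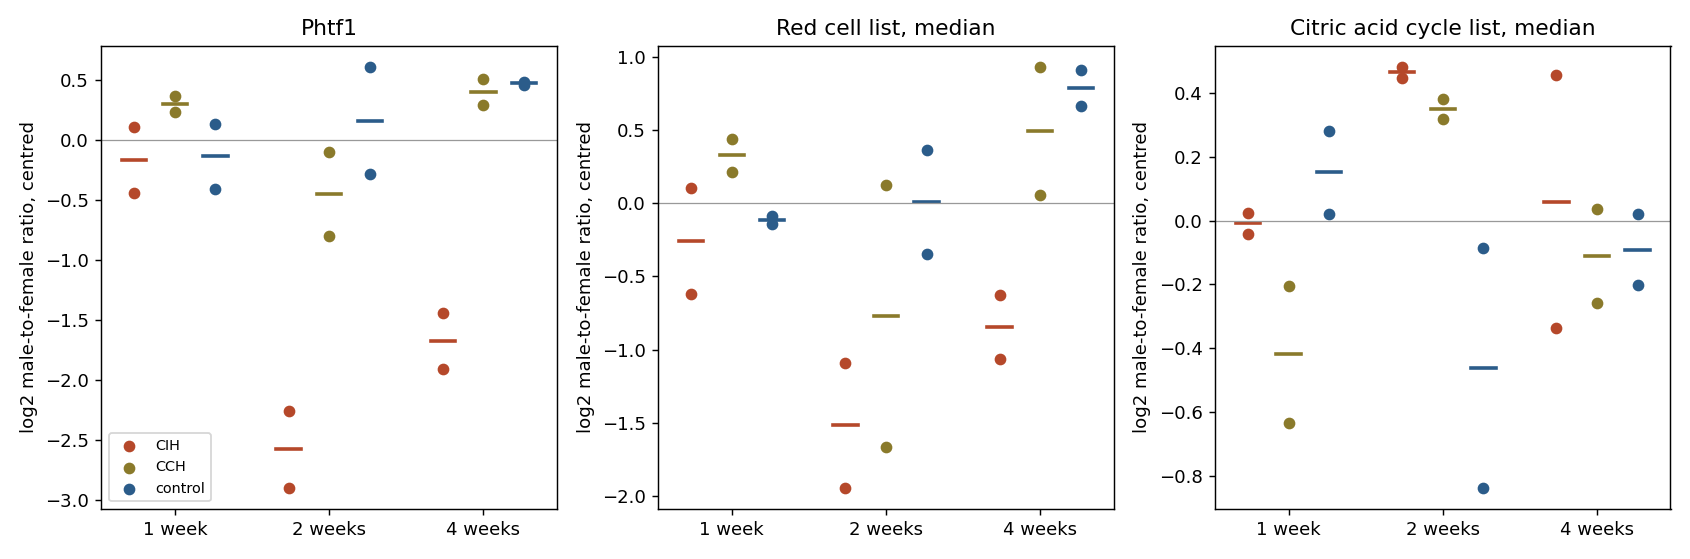
Log2 male-to-female ratio (y axis) of Phtf1 and median ratio of the red cell and citric acid cycle lists on all 18 arrays, by duration, with CIH left, CCH in the middle and control right, a point per array and a bar at the group mean. Phtf1 lies between -2.90 and -1.44 on the 4 CIH arrays of 2 and 4 weeks, and the citric acid cycle list is lowest on a 2-week control array (-0.84).

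Whether the 2-week difference departs from the mean of the 1-week and 4-week differences was tested in the same fit. By limma, 0 of 6557 genes (0%) passed, with a smallest adjusted p of 0.232, and 864 (13.2%) had an unadjusted p under 0.05. The smallest p-values for a higher difference at 2 weeks were those of Pafah1b3 (2.07 ± 0.41 SE), the aldo-keto reductase gene Akr1e1 (2.04 ± 0.41) and Dcn (1.24 ± 0.26). For a lower one they were those of the methyltransferase gene Smyd5 (-1.15 ± 0.24), the checkpoint kinase gene Chek1 (-1.27 ± 0.31) and Phtf1 (-1.65 ± 0.41). All 6 had a limma adjusted p of 0.232. Of the citric acid cycle list, 8 of 16 members had an unadjusted p under 0.05, of fatty acid oxidation 12 of 25, of complex I 10 of 32 and of the red cell list 1 of 11. Without replicate 1 of the 4-week CIH group, the array with Eif2s3y near 0, 38 genes passed.

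Intermittent and constant hypoxia of 2 weeks were compared directly, without the controls. By limma, 2 of 6603 genes (0.0303%) passed, and 430 (6.51%) had an unadjusted p under 0.05. Pgrmc1, an X-linked gene for a heme-binding membrane protein, had 0.18 and 0.11 on the CIH arrays, against -1.67 and -1.11 on the CCH arrays. The CIH ratios were near those of the controls (0.19 and 0.25), and the difference from CCH was 1.54 ± 0.23 (SE, limma adjusted p = 0.041). Phtf1 had -2.26 and -2.90 under CIH, against -0.80 and -0.09 under CCH, a difference of -2.13 ± 0.34 (SE, limma adjusted p = 0.0455). Next by p-value came Bcl3, an atypical inhibitor of NF-kappa-B, and Tafa5, a secreted protein gene (1.34 and 1.33), and on the lower side Nbas, of transport to the endoplasmic reticulum, and Ppil1, a spliceosomal isomerase (-1.04 and -0.94), with limma adjusted p between 0.28 and 0.499. Set side by side against the same 2-week controls, which both comparisons share, the citric acid cycle list had a median difference of 0.92 under CIH and 0.75 under CCH, complex I 0.45 and 0.44, sarcomere genes 0.44 and 0.69, and red cell genes -1.55 and -0.76. The medians of the direct CIH minus CCH differences were 0.19, 0.01, 0.10 and -0.80. For red cell genes the CCH value averages arrays that were far apart. On CCH replicates 1 and 2, Alas2 had -2.04 and 0.34, Fech -1.66 and 0.26 and Hbb-bh1 -2.09 and 0.13. Gypc, with -0.06 and -0.27, was closer together. Replicate 1 thus lay near the CIH arrays in the first of these genes, and replicate 2 did not.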

How the data were processed

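Each deposited value is a log2 ratio of the male (Cy5) and female (Cy3) channel. The dyes are given per the labels, base 2 follows from the values, whose linear mean is 1 on each array, and the direction was set by Eif2s3y, which is positive on 17 of 18 arrays and -0.03 on replicate 1 of the 4-week CIH group. Background correction, spot filter and normalization are not given in the sources used here, nor are scanner intensities or slides, so no correction, filter on dim spots or slide block was tried. Of 28704 spots, 15889 and 17587 had a value on the CIH arrays, and 18387 and 15802 on the control arrays. The number of arrays limits the precision. Of all spots, 18511 carried 1 gene symbol, 937 several and 9256 none. The last 2 kinds entered only the test of single spots. RefSeq gene identifiers matched 18267 spots and changed 0 symbols.

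Arrays were centred on their median and spots of a gene averaged. limma 3.58.1 in R 4.3.3 fitted 9 group means over 18 arrays (lmFit and eBayes, whose prior had 5.92 degrees of freedom and an SD of 0.255). Tests were two-sided, p-values were adjusted by Benjamini and Hochberg over all tested genes, and the threshold was 0.05. Sharing the estimate of spread among 18 arrays assumes a like spread in each group. The title of CIH 1 week replicate 1 differs from its source name, which gives another treatment and duration. The array was grouped by title, which touches the spread and the comparison of durations. The fit was tested on simulated data. Figures were drawn with matplotlib 3.10.9.

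Named genes were those past the threshold, filled to 12 per direction by p among genes whose groups do not overlap, the 3 members with the smallest p of each list of at least 5, the 3 leading genes per direction of the other comparisons and a panel of sex, hypoxia and heart genes. Of the panel, Xist had a value on 2 and Hmox1 on 3 of the 4 arrays, and Vegfa, Acta1, Myh6, Myh7, Ryr2, Hba-a1 and Hbb-b1 were not analysed here. The members and lists were chosen with earlier results of these data known. No list was tested as a set. The A and B letters of the titles, which some titles lack, were not taken to pair the arrays. Deviations from the group means of same-lettered CIH and control arrays of 2 weeks correlated at -0.133. Over 36 pairs of groups the values ran from -0.508 to 0.437, and 13 were over 0.1. Whether the letters mark arrays made together was not tested.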

Additional observations from a re-analysis of the deposited data

Results flagged for a closer look

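A direct test found that the male-to-female ratio of 2 genes differed between intermittent and constant hypoxia of 2 weeks. For Pgrmc1 the CIH minus CCH difference was 1.54 ± 0.23 (SE, n = 2 arrays per group, limma adjusted p = 0.041), and both CIH arrays lay above both CCH arrays. The adjusted p was 0.0582 after scaling the arrays to 1 spread and 0.128 with quantile normalization, and it lay between 0.16 and 0.324 without CCH replicate 1, CIH replicate 1 or CIH replicate 2. For Phtf1 the difference was -2.13 ± 0.34 (SE, limma adjusted p = 0.0455), and both CIH arrays lay below both CCH arrays. The adjusted p was 0.999 after that scaling (-1.46), and it lay between 0.0616 and 0.799 when any 1 of the 4 arrays was left out. Groups of 2 arrays were too small to look for single arrays apart from their group.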

How the results depend on the processing

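The count of genes past the limma threshold for CIH minus control (1) was 6 with arrays scaled to a common spread, 2 with quantile normalization and 0 with the spread of the 4 arrays alone, with spots on all 4 arrays only and with 13378 single spots. Leaving out 1 array gave 0 to 17. The count at an unadjusted p under 0.05 (1539) was 3133 with single spots and 431 to 1516 with 1 array left out. For the comparison of durations (0), leaving out 1 array gave 0 to 38. For CIH minus CCH (2), the count was 0 with scaling, 1 with quantile normalization and 0 to 1 with 1 array left out. A replicate block by title letter left the counts at 1, 0 and 2 (1526 at an unadjusted p under 0.05) and changed no other call. With the letters of the control arrays crossed, added after seeing the data, the counts were 1 and 1455. Differences changed sign for Eif2s3y (-0.776) and Kdm6a (0.312) with scaling, Kdm6a with quantile normalization (0.105), Pdk2 without centring (-0.0828) and Car1 with spots on all 4 arrays only (-0.197). With 1 array left out, where the lone array is assumed to vary like the other groups, the differences spanned -0.0258 to 0.262 for Arnt, -0.303 to 0.593 for Egln3, -2.11 to 0.478 for Nppa, -1.11 to 1.08 for Nppb and -0.0509 to 0.0802 for Pdk2. Without replicate 1 of the 4-week CIH group, added after seeing the data, the 4-week median differences changed sign for the genes higher at 2 weeks (-0.138), the leading higher genes (-0.126), the citric acid cycle (-0.344), fatty acid oxidation (-0.162) and complex I (-0.061). The causes of these shifts were not tested. Signal over background is unknown, so the reliability of dim spots could not be weighed.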
